A study of Bos grunniens with 18 samples.

Results

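The receptors through which metabolic hormones are sensed were examined in the blood of female yaks at 3 reproductive stages. The set holds 9 genes of the 20607 in the deposited table: *GLP1R*, *INSR*, *IGF1R*, *IGF2R*, *GHR*, *LEPR*, *ADIPOR1*, *ADIPOR2* and the adaptor *IRS2*. They were taken by gene name, and each name belonged to 1 identifier. *GLP1R* was chosen by its measured level, which differed between the stages in these same libraries, so its values are given as a description with no test. The other genes were added for their place beside it in hormone sensing.

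Insulin, insulin-like growth factors, growth hormone, leptin, adiponectin and glucagon-like peptide 1 tell tissues how much fuel is at hand. *INSR* and *IGF1R* are receptor tyrosine kinases that pass the signal to adaptors such as *IRS2* and on to PI3-kinase and AKT. *IGF2R* carries IGF2 and mannose-6-phosphate tagged enzymes to the lysosome. *GHR* and *LEPR* are cytokine receptors that work through JAK2 and STAT proteins, *ADIPOR1* and *ADIPOR2* couple adiponectin to AMPK and PPAR pathways, and *GLP1R* raises cyclic AMP, best known from the pancreatic beta cell. White blood cells also carry receptors of this kind, and energy balance is a known condition for ovarian cycles and pregnancy.

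The 18 libraries came from whole blood of 6 cows aged 4 to 8 years, which the study followed through the stages. They fall into 6 libraries of anestrus (the Y-A group), 6 of estrus (the Y-E group) and 6 of pregnancy (the Y-P group), numbered 1 to 6 in each group. Estrus was synchronised in this herd with a progesterone pessary, prostaglandin F2α and gonadotropin-releasing hormone before timed insemination. The days of blood sampling relative to these agents, and the time of pregnancy, are not given in the sources used here, so an effect of the agents cannot be told apart from that of the stage. The labels name no sequencing batch, and the time of sampling cannot be told apart from the stage. Y-E replicate 6 has no entry in the study's supplementary tables and stood apart from the other Y-E libraries, so results that rest on it are given with and without it.

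Total counts ran from 30247267 to 48401076 per library. At this depth, 3 counts, the most that an observed 0 allows, correspond to 0.0620 to 0.0992 CPM (counts scaled to the size of the library with TMM factors, the unit of levels below unless another is named). Hemoglobin genes (6) made up 3.10% to 16.7% of a Y-A library, 0.0272% to 0.376% of a Y-P library and 0.0899% to 0.713% of 5 Y-E libraries, against 8.36% of Y-E replicate 6. The summed level of 13 erythroid markers (of 18 listed) was 880 to 12524 CPM in Y-A, 478 to 600.1 CPM in those 5 Y-E libraries, 5588 CPM in Y-E replicate 6 and 351 to 443 CPM in Y-P. The summed level of 11 neutrophil markers (of 16 listed) was 4609 to 10457 CPM in Y-A, 8315 to 13933 CPM in the 5 Y-E libraries, 5951 CPM in Y-E replicate 6 and 3599 to 6975 CPM in Y-P. The 12 T cell markers analysed (of 17 listed) summed to 2011 to 2201 CPM in Y-A, 1989 to 2347 CPM in Y-E and 2461 to 3577 CPM in Y-P. In bulk blood, a smaller number of cells of a type cannot be told apart from less RNA per cell.

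Per length, as FPKM, the receptors spanned a wide range of levels. Over the 18 libraries the median was 24.2 FPKM for *ADIPOR2*, 22.5 for *ADIPOR1*, 17.9 for *IGF2R* and 13.2 for *IGF1R*. *INSR* followed with a median of 6.62 FPKM and *IRS2* with 5.51 FPKM. *GLP1R* (0.827 FPKM) and *GHR* (0.490 FPKM) came far below, and *LEPR* was last with a median of 0. The ranges of neighbours in this order overlapped, other than those of *GHR* and *LEPR*, so most single steps of the order do not exceed the spread of the libraries. *IGF2R* still lay above *IGF1R* in 17 of the 18 libraries, *IGF1R* above *INSR* in 17, and *GLP1R* above *GHR* in 12. The order of the medians was the same in all 3 stages, with the exception that *IRS2* (6.40 FPKM) stood before *INSR* (5.94 FPKM) in Y-E.

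**Figure D1:**
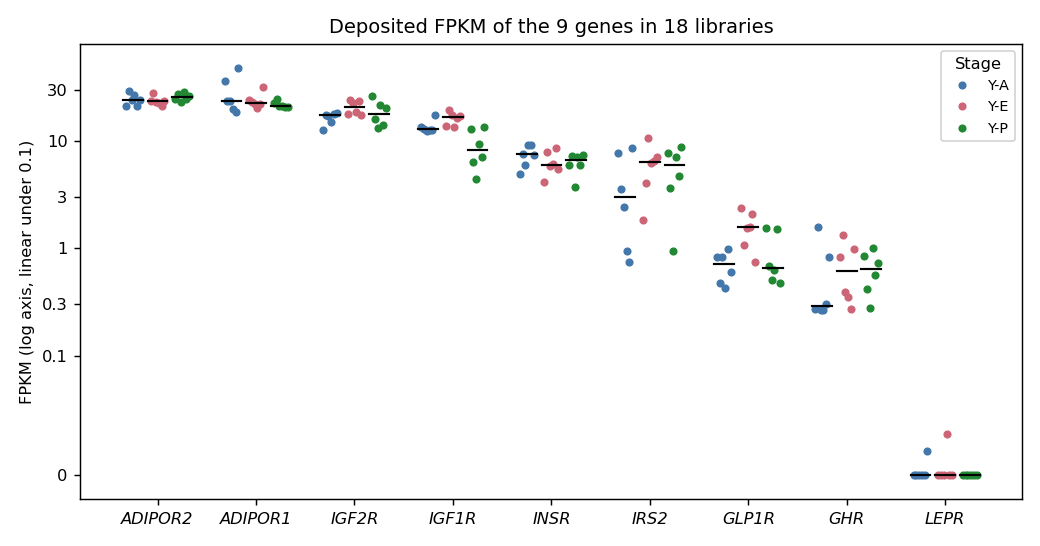
Level of the 9 genes in each of the 18 libraries in FPKM on a logarithmic axis, with points coloured by stage and genes ordered by their median over all libraries. *ADIPOR2*, *ADIPOR1* and *IGF2R* lie above *INSR* and *IRS2*, and *LEPR* is at 0 in 16 libraries. *GLP1R* runs from 0.425 to 2.38 FPKM, with its highest value in Y-E, and *GHR* from 0.265 to 1.57 FPKM.

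*GLP1R* (ENSBGRG00000007001) is listed on the reverse strand of chromosome 24 from 23106908 to 23151683, and no other gene of the table overlaps it. Its level ran from 1.71 to 4.12 CPM in Y-A (median 2.83), from 2.93 to 9.48 CPM in Y-E (median 6.29) and from 1.62 to 5.32 CPM in Y-P (median 2.37). These levels rest on 51 to 137 counts in a Y-A library, 127 to 300 in a Y-E library and 59 to 264 in a Y-P library. Thus 5 Y-E libraries, at 4.48 CPM or more, lay above every Y-A library, and Y-E replicate 6, at 2.93 CPM, lay within the Y-A range. The Y-E and Y-P ranges overlapped because Y-P replicates 1 (5.12 CPM) and 5 (5.32 CPM) exceeded the lower Y-E libraries.

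The mean level of *GLP1R* (± SD, n = 6 each) was 2.83 ± 0.988 CPM for Y-A and 6.35 ± 2.47 CPM for Y-E, against 3.13 ± 1.65 CPM in Y-P. The fitted log2 fold change was 1.16 (SE 0.35) in Y-E vs. Y-A, −1.02 (SE 0.35) in Y-P vs. Y-E and 0.14 (SE 0.35) in Y-P vs. Y-A. Without Y-E replicate 6, the Y-E mean was 7.03 ± 2.02 CPM (SD, n = 5), and the first 2 of these changes were 1.31 and −1.17. Of the genes tested, 0.131% lay higher in every Y-E than in every Y-A library, and 0.593% did so without Y-E replicate 6, where *GLP1R* is one of them.

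The *GLP1R* values can also be set out by libraries with the same number, taken as those of 1 cow. These are the values by which the gene was chosen, so the pairs describe them again and add no separate support. Y-E exceeded Y-A in 6 of 6 pairs, by a ratio of 1.16 to 3.46 (median 2.29), and Y-P was below Y-E in 6 of 6 pairs, with ratios of 0.299 to 0.618. Over all tested genes, 3.39% were higher in every such pair in Y-E vs. Y-A and 11.4% were lower in every pair in Y-P vs. Y-E. Between Y-P and Y-A the pairs were divided, with 4 higher and 2 lower in Y-P. Replicates 1 and 5 held the 2 highest *GLP1R* levels in each of the 3 stages.

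**Figure D2:**
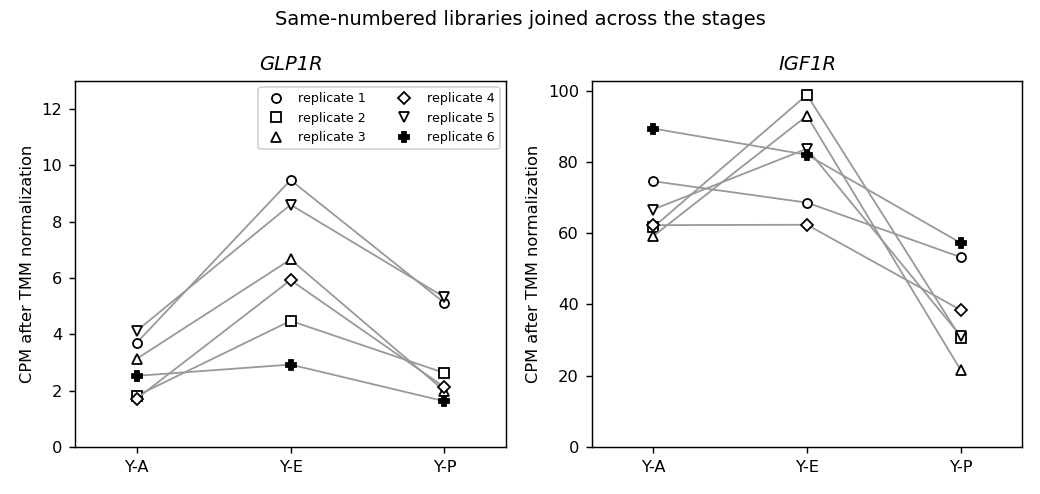
Level of *GLP1R* (left) and *IGF1R* (right) in CPM at the 3 stages, with a thin line joining the libraries of the same number. Each replicate number has its own symbol, filled for replicate 6. *GLP1R* was higher in Y-E than in Y-A in 6 of 6 lines, and *IGF1R* was lower in Y-P than in both other stages in 6 of 6 lines.

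Genes whose level followed that of *GLP1R* over the 18 libraries were named by the correlation of log2 CPM. The closest were *ADGRG3*, an adhesion G protein-coupled receptor (Pearson r = 0.852), *PROK2*, a secreted prokineticin (r = 0.850), ENSBGRG00000006036 (r = 0.850), *ALPL*, tissue-nonspecific alkaline phosphatase (r = 0.833), and ENSBGRG00000021239 (r = 0.821). *ADGRG3* had a median of 11.0 CPM in Y-A, 28.3 CPM in Y-E and 5.92 CPM in Y-P. With the stage means subtracted, *ADGRG3* (r = 0.876) and *ALPL* (r = 0.834) were again first, followed by *THY1* (r = 0.827), ENSBGRG00000014237 (r = 0.801) and *BMX*, a tyrosine kinase (r = 0.787). These correlations describe 18 libraries that share animals, and no p was computed.

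The stage medians of the summed neutrophil markers had the same order as those of *GLP1R*. They were 6233 CPM in Y-A, 11389 CPM in Y-E and 4526 CPM in Y-P. Y-E replicate 6 was the lowest Y-E library for both the markers and *GLP1R*. Monocyte markers shared that order, with medians of 1615, 1883 and 1216 CPM. Within Y-P, replicate 3 had the highest neutrophil sum, 6975 CPM, at 1.99 CPM of *GLP1R*. Y-P replicates 5 and 1, the highest in *GLP1R*, had neutrophil sums of 4535 and 4616 CPM. *ALPL* is itself in the neutrophil marker list. By edgeR's test at an adjusted p under 0.05, 0 of the 10 neutrophil markers tested passed in Y-E vs. Y-A (0.0207% of all tested genes did), and 6 of 10 were lower in Y-P vs. Y-E (*CSF3R*, *MGAM*, *S100A9*, *LTF*, *MMP9* and *S100A12*), where 8.68% of all tested genes were. Without Y-E replicate 6, 2 of 11 were higher in Y-E vs. Y-A (*MGAM* and *MMP9*), as were 0.0478% of all tested genes. In that fit, 8 of 11 were lower in Y-P vs. Y-E, as were 8.03% of all tested genes. *MMP8* was at or under 3 counts in every Y-P library, and *CXCR1*, *CXCR2*, *CAMP*, *FCGR3A* and *PADI4* were not analysed here. The part of neutrophil content in the *GLP1R* levels was not tested. Of 7 pancreatic islet markers, the 2 analysed summed to 0 to 1.31 CPM, and 4 liver and adipose markers summed to 0 to 1.93 CPM.

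Whether the remaining receptors differed between the stages was tested with edgeR over all 14508 genes that passed its low-count filter. Of them 7 were tested beside *GLP1R*, and *LEPR* was below the filter. In Y-E vs. Y-A 0 of 7 passed an adjusted p of 0.05, against 0.0207% of all tested genes, and 1 of 7 had an unadjusted p under 0.05, against 6.2%. DESeq2 and limma also passed 0, with *IRS2* and *GHR* given no adjusted p by DESeq2. In Y-P vs. Y-A 1 of 7 passed, against 5.83%, and in Y-P vs. Y-E 1 of 7, against 14.4%. Both times the gene was *IGF1R*. The median log2 fold change of the 7 was 0.24, −0.12 and −0.35 in the 3 comparisons in this order, beside −0.01, 0.03 and 0.04 over all tested genes.

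**Figure D3:**
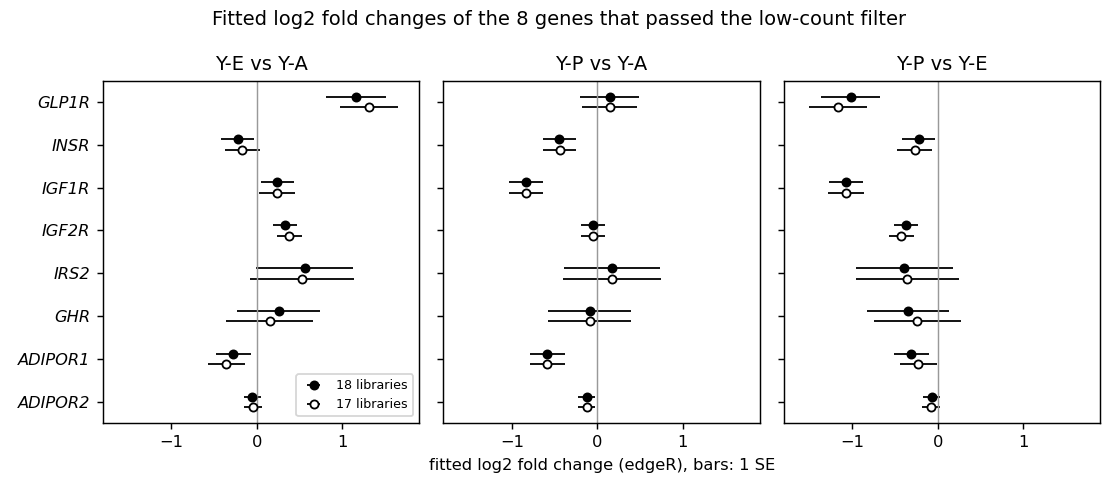
Log2 fold change from edgeR, with an SE derived from the F statistic of its test, for the 8 genes that passed the low-count filter in the 3 comparisons. Filled symbols are the fit of all 18 libraries and open symbols the fit without Y-E replicate 6. *IGF1R* had an adjusted p under 0.05 where Y-P is compared with Y-A (−0.83) and with Y-E (−1.07), and *GLP1R* is shown without a test.

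*IGF1R* (ENSBGRG00000006060, chromosome 17, 6741371 to 7071772, forward strand), the receptor of IGF1 and IGF2, was lower in pregnancy than in both other stages. Its level ran from 59.1 to 89.4 CPM in Y-A (median 64.4), from 62.4 to 98.8 CPM in Y-E (median 82.8) and from 21.5 to 57.2 CPM in Y-P (median 34.7). Every Y-P library lay below every Y-A and every Y-E library, and the Y-A and Y-E ranges overlapped. Of all tested genes, 2.32% were lower in every Y-P than in every Y-A library and 3.84% lower than in every Y-E library. In the order of the stages, the means were 68.9 ± 11.4, 81.4 ± 13.9 and 38.7 ± 14.0 CPM (n = 6 each, ± SD).

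The log2 fold change of *IGF1R* was −0.83 (SE 0.20) in Y-P vs. Y-A, 1.78-fold lower, with an adjusted p of 0.0210 by edgeR's quasi-likelihood test. In Y-P vs. Y-E it was −1.07 (SE 0.20), 2.11-fold lower, with an edgeR adjusted p of 0.00194. Y-P was below in 6 of 6 same-numbered pairs in both comparisons, which share the Y-P libraries. Without Y-E replicate 6 the edgeR adjusted p was 0.0236 and 0.00309. The difference between Y-E and Y-A, 0.24 (SE 0.20), did not pass (edgeR adjusted p = 0.999). Without Y-P replicate 2, *IGF1R* no longer passed in Y-P vs. Y-A, at −0.78 and an edgeR adjusted p of 0.0528. On FPKM the ranges overlapped, since Y-P reached 13.6 FPKM and Y-A began at 12.5 and Y-E at 13.5 FPKM.

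Since these genes share one scale per length, FPKM can be set in ratio within a library. The ratio of *IGF1R* to *INSR* had a median of 1.91 in Y-A and 2.71 in Y-E, against 1.25 in Y-P. Its ranges overlapped, at 1.37 to 2.73, 1.904 to 3.32 and 0.895 to 2.16. The ratio of *IGF2R* to *IGF1R* had a median of 1.27 in Y-A and 1.29 in Y-E, against 2.17 in Y-P. In Y-P the latter ran from 1.47 to 2.99, above every Y-A library (up to 1.41) and, narrowly, every Y-E library (up to 1.44). Its denominator is *IGF1R*, the gene lower in Y-P, so this ratio is not a result apart from that one. How many ratios of other gene pairs separate the stages in this way was not computed.

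The genes most like *IGF1R* over the 18 libraries were *BMPR2*, a receptor of bone morphogenetic proteins (r = 0.963), *PEAK1*, a pseudokinase (r = 0.961), *CREBBP*, a histone acetyltransferase (r = 0.958), *CBL*, a ubiquitin ligase (r = 0.955), and *KDM5B*, a histone demethylase (r = 0.955). *BMPR2* had a median of 74.7 CPM in Y-A, 91.3 CPM in Y-E and 36.3 CPM in Y-P. Among the receptors themselves, *IGF1R* went most closely with *IGF2R* (r = 0.69 over the 18 libraries, 0.70 with the stage means subtracted). With *GLP1R* its correlation was 0.35, and 0.00 with the stage means subtracted.

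Markers of several cell types moved in the same comparisons as *IGF1R*, by edgeR at an adjusted p under 0.05. In Y-P vs. Y-A, 7 of 12 erythroid, 4 of 7 platelet and 1 of 10 neutrophil markers were lower, as were 3.61% of all tested genes, and 6 of 12 T cell markers were higher, as were 2.22%. In Y-P vs. Y-E, 4 of 12 erythroid, 4 of 7 platelet, 6 of 10 neutrophil and 1 of 8 monocyte markers were lower (8.68% of all tested genes), and 7 of 12 T cell and 1 of 5 NK cell markers were higher (5.77%). None of the 10 B cell markers and none of the 7 eosinophil and basophil markers passed in either comparison. Without Y-E replicate 6, Y-P vs. Y-E gave 2 of 12 erythroid, 4 of 7 platelet, 8 of 11 neutrophil and 2 of 8 monocyte markers lower (8.03% of all tested genes). In that fit, 5 of 12 T cell and 1 of 5 NK cell markers were higher (5.66%). Platelet markers (8 of 12 listed) summed to 339 to 410 CPM in Y-A, 246 to 426 CPM in Y-E and 159 to 220 CPM in Y-P, and *GP1BB* was at or under 3 counts throughout. Monocyte markers (8 of 10 listed) summed to 1336 to 1823, 1181 to 2300 and 921 to 1446 CPM. The part of cell composition in the *IGF1R* result was not tested.

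*INSR* (ENSBGRG00000014314, chromosome 8, 16599548 to 16758675, reverse strand), the insulin receptor, ran from 27.6 to 49.0 CPM in Y-A (median 37.5), from 20.9 to 44.4 CPM in Y-E (median 30.0) and from 18.4 to 34.5 CPM in Y-P (median 28.1). The 3 ranges overlapped, and Y-P was below Y-A in 6 of 6 same-numbered pairs, as were 8.22% of all tested genes. The log2 fold change of −0.44 (SE 0.19) in Y-P vs. Y-A did not pass after adjustment (edgeR adjusted p = 0.178, unadjusted p = 0.0335). The changes of −0.22 (SE 0.19) in each of the other comparisons did not pass either.

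*IGF2R* (ENSBGRG00000021970, chromosome 10, 104258350 to 104380749, reverse strand) ran from 160 to 212 CPM in Y-A (median 185), from 189 to 280.3 CPM in Y-E (median 235) and from 140 to 238 CPM in Y-P (median 180). Y-E replicates 2, 3 and 5, each above 270 CPM, exceeded all libraries of the other stages, and the other Y-E libraries lay among them. The log2 fold change was 0.33 (SE 0.14, edgeR adjusted p = 0.728) in Y-E vs. Y-A and −0.38 (SE 0.14, edgeR adjusted p = 0.0838) in Y-P vs. Y-E. Without Y-P replicate 1 the latter was −0.47 and passed, with an edgeR adjusted p of 0.0292.

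*IRS2* (ENSBGRG00000004398, chromosome 15, 18145306 to 18150693, reverse strand), which docks to the activated insulin and IGF1 receptors, was the gene of the set that varied most within a stage. Its level ran from 4.09 to 46.01 CPM in Y-A (median 14.8), from 9.55 to 60.0 CPM in Y-E (median 32.6) and from 4.75 to 38.2 CPM in Y-P (median 26.1). Within Y-A, replicates 1 (45.4 CPM) and 6 (the highest) stood far above replicates 4 (4.87 CPM) and 5 (the lowest), and all 3 stages overlapped. The pooled SD of log2 CPM within stages was 1.19, larger than that of 90.0% of the tested genes. The log2 fold changes of 0.56 (SE 0.57) for Y-E against Y-A, 0.17 (SE 0.56) for Y-P against Y-A and −0.39 (SE 0.56) for Y-P against Y-E did not pass (edgeR adjusted p = 0.999, 0.892 and 0.700). Each of these changes was smaller than that SD, and the size of change that could be detected was not computed.

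*GHR* (ENSBGRG00000025165, chromosome 23, 51444003 to 51779919, forward strand), the growth hormone receptor, was low, at 30 to 199 counts per library. It ran from 0.944 to 5.56 CPM in Y-A, from 1.06 to 5.13 CPM in Y-E and from 1.02 to 3.07 CPM in Y-P, with full overlap. Replicate 2 was the highest library in both Y-A and Y-E and among the lower ones in Y-P. None of the 3 comparisons passed (edgeR adjusted p = 0.688 to 0.999), and within a stage the SD of log2 CPM was 0.852.

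*LEPR* (ENSBGRG00000012855, chromosome 3, 86328233 to 86489981, reverse strand), the leptin receptor, had 0 counts in 16 of the 18 libraries. Y-A replicate 6 held 4 counts and Y-E replicate 4 held 8, and no stage comparison can be drawn from these. *LEPROT*, a separate protein that limits the leptin receptor's presence at the cell surface, was listed with 1954 to 3268 counts per library. Its log2 fold change of −0.24 (SE 0.10) in Y-P vs. Y-A did not pass (edgeR adjusted p = 0.160).

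*ADIPOR1* (ENSBGRG00000025178, chromosome 14, 81503314 to 81512515, forward strand) ran from 53.0 to 135 CPM in Y-A (median 60.9), from 50.8 to 82.9 CPM in Y-E (median 64.5) and from 46.7 to 64.2 CPM in Y-P (median 49.9). The 3 highest levels were those of Y-A replicates 6 (135 CPM) and 1 (109 CPM) and Y-E replicate 6 (82.9 CPM), and the other 15 libraries lay between 46.7 and 64.7 CPM. Those 3 libraries also held the highest summed erythroid markers, at 12524, 3489 and 5588 CPM. Y-A replicate 5, next with 2987 CPM of erythroid markers, had 53.0 CPM of *ADIPOR1*. The part of immature red cells in these levels was not tested.

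The log2 fold change of *ADIPOR1* was −0.59 (SE 0.21) in Y-P vs. Y-A and did not pass (edgeR adjusted p = 0.0954). It was −0.28 (SE 0.21) in Y-E vs. Y-A and −0.31 (SE 0.21) in Y-P vs. Y-E, and neither passed. Without Y-A replicate 6, the highest library, it was −0.38 in Y-P vs. Y-A and −0.0632 in Y-E vs. Y-A, and without Y-A replicate 1 it was −0.16 in the latter. By contrast, *ADIPOR2* (ENSBGRG00000019663, chromosome 5, 115902302 to 115922767, forward strand) was the steadiest gene of the set. Its 18 libraries lay between 34.6 and 49.1 CPM, and its SD of log2 CPM within stages, 0.139, was larger than that of 2.70% of the tested genes. The changes of *ADIPOR2* were −0.05 for Y-E against Y-A, −0.12 for Y-P against Y-A and −0.07 for Y-P against Y-E (SE 0.10 each), and none passed (edgeR adjusted p = 0.488 to 0.999).

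**Figure D4:**
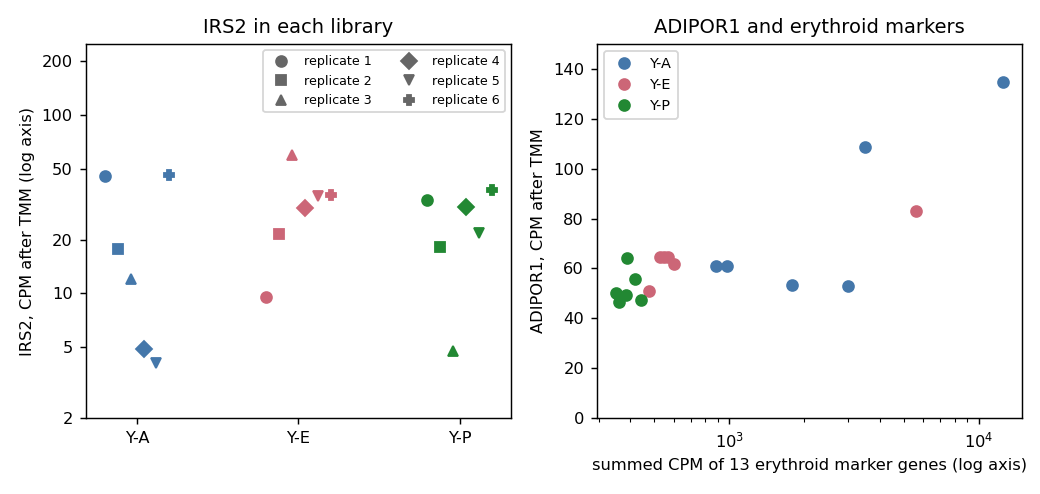
Left, level of *IRS2* in CPM on a logarithmic axis for each library by stage. Right, level of *ADIPOR1* in CPM against the summed level of the erythroid markers in CPM on a logarithmic axis for the 18 libraries, where Y-A replicates 1 and 6 and Y-E replicate 6 stand above 80 CPM.

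Of the ligands of these receptors, *IGF1* had 0 counts in 15 libraries and at most 8. *INS*, *IGF2*, *GIP*, *LEP*, *GH1* and *ADIPOQ* were not analysed here. *DPP4*, the peptidase that inactivates glucagon-like peptide 1, was at 75.3 ± 15.8 CPM for Y-A and 73.2 ± 16.9 CPM for Y-E, beside 95.9 ± 20.4 CPM in Y-P (± SD, 6 libraries each). Its log2 fold change did not pass in Y-P vs. Y-A (0.35, SE 0.18) or in Y-P vs. Y-E (0.39, SE 0.18; edgeR adjusted p = 0.144). In Y-P vs. Y-E it did pass with the replicate number as a block, at 0.40 (SE 0.12, edgeR adjusted p = 0.0352), and with the libraries scaled by their totals alone, at 0.54 (edgeR adjusted p = 0.0360). None of the 7 ligands and binding proteins tested passed in any comparison.

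Several receptors related to the set were low. *GIPR*, the receptor of the other incretin, held 6 to 52 counts per library, and its 1.22 (SE 0.44) in Y-P vs. Y-E had an edgeR adjusted p of 0.0661. With the libraries scaled by their totals alone it was 1.35 and passed (edgeR adjusted p = 0.0478). *GCGR*, the glucagon receptor, held 0 to 130 counts, and *PRLR*, the prolactin receptor, 0 to 62 counts, and neither passed. *INSRR* had 0 counts in 11 libraries. *IRS1*, the sister adaptor of *IRS2*, held at most 29 counts and was at 0 in 5 libraries. Of the 9 genes of this group tested, 2 were lower in Y-P vs. Y-E (8.68% of all tested genes were), *FURIN* and *SORT1*, named after their values were seen. Without Y-E replicate 6, 1 of 9 was lower, *FURIN*, against 8.03% of all tested genes.

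Downstream, 106 tested genes of the pathway lists were counted. In Y-E vs. Y-A 0 of 106 passed in the edgeR test. In Y-P vs. Y-A 6 passed (5.66% against 5.83% of all tested genes), 1 higher and 5 lower, where 2.22% of all tested genes were higher and 3.61% lower. In Y-P vs. Y-E 22 passed (20.8% against 14.4%), 3 higher and 19 lower, where 5.77% of all were higher and 8.68% lower. The median log2 fold change of the lists was 0.05, −0.05 and −0.10, in that order of comparisons.

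*GAB2*, a docking adaptor that brings PI3-kinase to receptors, was lower in pregnancy than in both other stages. Its mean was 241 ± 34.1 CPM for Y-A and 355 ± 102 CPM for Y-E, beside 119 ± 17.9 CPM in Y-P (± SD, 6 libraries each). No Y-P library (up to 143 CPM) reached the lowest library of the other stages (206 CPM). Of all tested genes, 2.32% lay lower in every Y-P than in every Y-A library, and 3.84% lower than in every Y-E library. The log2 fold change was −1.02 (SE 0.17, edgeR adjusted p = 0.00341) in Y-P vs. Y-A and −1.58 (SE 0.17, edgeR adjusted p = 0.000188) in Y-P vs. Y-E. *APPL1*, an adaptor that binds the adiponectin receptors, was higher by 0.37 (SE 0.12, edgeR adjusted p = 0.0475) in Y-P vs. Y-E. In Y-P vs. Y-A its change was 0.03 (SE 0.12, edgeR adjusted p = 0.919). Its means were 82.1 CPM in Y-A, 64.6 CPM in Y-E and 83.7 CPM in Y-P. Of 12 adaptors tested, 4 passed in Y-P vs. Y-E (against 14.4% of all tested genes), with *SOS1* and *CRKL*, both lower, named after their values were seen.

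In the PI3-kinase, AKT and mTOR list, 4 of 23 tested genes (17.4%) passed in Y-P vs. Y-E, all lower. Of all tested genes, 8.68% were lower there, and 14.4% passed in either direction. In Y-P vs. Y-A 1 of 23 (4.35%) passed, also lower, against 3.61% of all tested genes lower and 5.83% in either direction. *PIK3CD*, the delta catalytic subunit found mainly in white blood cells, was at 848 ± 164 CPM for Y-A and 1113 ± 262 CPM for Y-E, beside 619 ± 69.2 CPM in Y-P (± SD, 6 libraries each). It fell by 0.85 on the log2 scale in Y-P vs. Y-E (SE 0.16, edgeR adjusted p = 0.00194). *PIK3CG*, the gamma catalytic subunit, changed by −0.73 (SE 0.13, edgeR adjusted p = 0.00199). In Y-P vs. Y-A neither passed (edgeR adjusted p = 0.0856 and 0.0990).

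Among the inhibitors of receptor signalling, 2 of 20 tested genes (10%) passed in Y-P vs. Y-E, below the 14.4% of all tested genes. *TRIB3*, a pseudokinase that binds AKT, was the 1 gene of the lists that passed as higher in Y-P against both other stages. It ran from 4.84 to 7.33 CPM in Y-A, from 4.12 to 9.20 CPM in Y-E and from 9.36 to 18.3 CPM in Y-P, so that the Y-P libraries lay above all others, as did those of 1.23% of the tested genes against Y-A and 2.19% against Y-E. Its log2 fold change was 1.10 (SE 0.19, edgeR adjusted p = 0.00479) in Y-P vs. Y-A and 0.998 (SE 0.19, edgeR adjusted p = 0.00256) in Y-P vs. Y-E. *SOCS3*, lower in Y-P vs. Y-E, was named after its values were seen.

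In the JAK and STAT list of leptin and growth hormone, 3 of 7 genes passed in Y-P vs. Y-E (against 14.4% of all tested genes) and 0 of 7 in Y-P vs. Y-A (against 5.83%). *PTPN11*, the phosphatase SHP2, rose by 0.28 (SE 0.09, edgeR adjusted p = 0.0350), while *STAT3* and *TYK2*, named after their values were seen, were lower. In the AMPK and PPAR list of adiponectin, 3 of 10 passed in Y-P vs. Y-E, all lower, where 8.68% of all tested genes were lower. *STK11*, the kinase that activates AMPK, was at 181 ± 4.92 CPM for Y-A and 193 ± 27.7 CPM for Y-E, beside 136 ± 13.7 CPM in Y-P (± SD, 6 libraries each). It changed by −0.42 (SE 0.10, edgeR adjusted p = 0.0193) in Y-P vs. Y-A and −0.50 (SE 0.10, edgeR adjusted p = 0.00246) in Y-P vs. Y-E.

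In the cyclic AMP list, the signalling branch of *GLP1R*, 2 of 18 tested genes were lower in Y-P vs. Y-A (against 3.61% of all tested genes) and 4 of 18 in Y-P vs. Y-E (against 8.68%), and 0 were higher. *ADCY9*, an adenylyl cyclase, changed by −0.78 (SE 0.17, edgeR adjusted p = 0.0146) and −0.65 (SE 0.17, edgeR adjusted p = 0.0162). *CREB1*, a transcription factor that answers to cyclic AMP, changed by −0.37 (SE 0.10, edgeR adjusted p = 0.0320) in Y-P vs. Y-A. With the libraries scaled by their totals alone, *STK11* (edgeR adjusted p = 0.121) and *CREB1* (edgeR adjusted p = 0.254) no longer passed in Y-P vs. Y-A, nor did *ADCY9* in Y-P vs. Y-E (−0.49, edgeR adjusted p = 0.0514). Without Y-E replicate 6, *SORT1* and *PDE4B* no longer passed in Y-P vs. Y-E and *EIF4EBP1* and *SHC1* did. The counts over all 106 genes were then 0, 6 and 22, with 0.157%, 6.06% and 13.7% of all tested genes passing.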

How the data were processed

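RNA of whole blood, drawn into EDTA tubes with TRIzol LS, was sequenced from poly(A)-selected, strand-specific libraries. The authors trimmed reads with Cutadapt 1.9, aligned them with HISAT2 2.2.1 to the *Bos grunniens* genome under Ensembl identifiers and assembled transcripts with StringTie 2.1.6. Per gene and library, the deposited values are whole-number counts and FPKM, which corrects fragments for gene length and depth. The program that made the counts is not given in the sources used here. Positions follow the deposited table, whose build is named only by its Ensembl release.

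Stages were compared on the counts with edgeR 4.0.16 under R 4.3.3 (TMM, filterByExpr, quasi-likelihood, two-sided, stage as the only factor, 18 libraries), and p-values were Benjamini-Hochberg adjusted over all 14508 tested genes. A gene passed at an adjusted p under 0.05. The SE given with an edgeR change is not reported by edgeR. It was taken as the absolute log2 fold change divided by the square root of the quasi-likelihood F statistic. DESeq2 1.42.0 and limma 3.58.1, on log2(FPKM + 1) or log2(FPKM + 0.1) of genes with a mean of at least 0.1 FPKM, were alternatives, beside other scalings, a replicate block and leaving out each library. The fits were tested on simulated data.

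The genes and lists were chosen with earlier results of these data known. Named were all 9 genes, a fixed set of ligands and relatives, up to 4 higher and 4 lower passing list genes per comparison by adjusted p, and the 5 genes most like *GLP1R* and *IGF1R*. Replicate numbers were taken as the animals, since the study followed 6 cows. Deviations from the stage means of same-numbered libraries correlated at 0.110 to 0.515 in Y-E vs. Y-A, −0.0492 to 0.369 in Y-P vs. Y-A and −0.0544 to 0.400 in Y-P vs. Y-E. The p-values measure the spread between these libraries. Intervals and floors cover counting error only.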

Additional observations from a re-analysis of the deposited data

How the results depend on the processing

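In 28 alternatives, the log2 fold change of *IGF1R* stayed between −0.98 and −0.63 in Y-P vs. Y-A, passing in 27, and between −1.24 and −0.86 in Y-P vs. Y-E, passing in 28. The change of *GLP1R* ran from 0.58 to 1.31 in Y-E vs. Y-A, from −1.24 to −0.45 in Y-P vs. Y-E and from −0.07 to 0.32 in Y-P vs. Y-A. Leaving out 1 library, 0 genes of the set passed in Y-E vs. Y-A, 0 to 1 in Y-P vs. Y-A (0 without Y-P replicate 2) and 1 to 2 in Y-P vs. Y-E (2 without Y-P replicate 1). With the replicate block, the counts were 0, 1 and 1, as without it, and no call of the set changed.

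Scaling by library totals alone moved the median of all genes from 0.03 to 0.19 in Y-P vs. Y-A and from 0.04 to 0.18 in Y-P vs. Y-E, and the passing genes from 322 higher and 524 lower to 1075 and 258, and from 837 and 1259 to 1795 and 758. Values under library totals, limma on log2(FPKM + 1) and limma on log2(FPKM + 0.1), in this order, changed sign for *IGF2R* (0.12, 0.13 and 0.14), *GHR* (0.0697, 0.0892 and 0.31) and *ADIPOR2* (0.0384, 0.0771 and 0.0801) in Y-P vs. Y-A, and for *ADIPOR2* (0.0793, 0.12 and 0.12) in Y-P vs. Y-E. None of these passed. With the replicate block, *GHR* was 0.25 in Y-P vs. Y-A, also with Y-E replicate 6 left out, an alternative chosen after seeing the data. Leaving out 1 library, *GHR* ran from −0.0503 to 0.79 in Y-E vs. Y-A and from −0.25 to 0.44 in Y-P vs. Y-A, *IGF2R* from −0.14 to 0.0145 and *IRS2* from −0.0458 to 0.52 in Y-P vs. Y-A. The cause was not tested. Depth limits *LEPR*, with counts in 2 libraries, and *GHR*, with 30 counts in its lowest.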

Other observations

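The genes nearest to *IRS2* and *ADIPOR1* were looked up after their values were seen. *IRS2* went with *MEX3D* (r = 0.967), *P2RY8* (r = 0.962), *TOR4A* (r = 0.961) and *VASN* (r = 0.957) over the 18 libraries, and with the stage means subtracted *TRIM8* (r = 0.974) came first and *JUND*, a subunit of the AP-1 transcription factor, had r = 0.963. *ADIPOR1* went with *ROGDI* (r = 0.923), *PKLR*, the pyruvate kinase of liver and red cells (r = 0.883), *IFRD2* (r = 0.882), *BLVRB*, a biliverdin reductase abundant in red cells (r = 0.880), and *SMOX* (r = 0.869). Its rank correlations were lower, 0.754 with *PKLR* and 0.719 with *BLVRB*, beside the 3 libraries that stood above the rest. These are descriptions of 18 libraries that share animals and differ in erythroid content, with no p.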
